A study of Mus musculus with 6 samples.

Results

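The peaks described here are the 251 Dppa2 peaks on mouse chromosome 8, of 3336 in the peak list of a V5-Dppa2 ChIP-seq in mouse ESCs. They were selected on their chromosome in that list, and the chromosome was singled out with its share of peaks already known, so that this share is a description and was not tested. ChIP-seq with an anti-V5 antibody had been done in CGR8 cells, mouse ESCs kept feeder-free in serum and LIF and stably expressing Dppa2 with an N-terminal V5 tag from a pPyCAG-driven vector after puromycin selection of clones, and in parental CGR8 cells without the tag as a control. Each was represented by 1 library, so no value here has a replicate error, and how many clones entered the ChIP is not given in the sources used here. The control entered only through peak calling, and 4 further samples, modified ChIPs for H3K4me1, H3K4me3, H3K27ac and H3K9me3 in wild-type CGR8 cells, were not analysed here. The tagged protein was made from a transgene, and binding of untagged Dppa2 was not measured. The list holds peaks at transcription start sites (TSSs), which the authors had filtered on a MACS p-value no higher than 1e-10 and 100 reads or more, and it says nothing about weaker signal or about binding away from TSSs.

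Dppa2 is a SAP-domain protein of early embryos, germ cells and ESCs that binds DNA and lies in the nucleus together with its close relative Dppa4. It is known for binding promoters, including those of developmental and germline genes, and for its association with CpG-rich promoters in ESCs. Mouse chromosome 8 carries broadly expressed genes beside large tandem families, among them the defensins, the carboxylesterases and several Adam proteases, whose promoters are poor in CpG dinucleotides.

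Chromosome 8 held 7.52% of all listed peaks (95% exact Clopper-Pearson interval 6.65 to 8.47%, here and below for counting error only), and 4.84% of the 22367 protein_coding genes on the chromosomes of the list. A gene was called bound when the midpoint of a peak lay within 1 kb of the TSS of any of its transcripts. By this rule 256 of the 1082 protein_coding genes on chromosome 8 were bound, or 23.7% (21.2 to 26.3%), where the share over all chromosomes was 14.2%. The share on the other chromosomes combined was 13.7% (13.2 to 14.2%), and on chromosome 11, the chromosome with the most peaks per Mb, it was 18.9% (17.1 to 20.9%). Of the 21 chromosomes, chromosome 8 had the highest bound share, and with 1.91 peaks per Mb it came next to chromosome 11, which had 2.86. In genes per Mb it ranked only 9, with 8.21. The number of copies of the chromosome and the read coverage in either library were not analysed here.

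Selected promoters are given as 300 bases of mm9, with the CG dinucleotides in capitals. They run from 250 bases before to 50 bases from the TSS on, 5′ to 3′ on the strand of the gene. The first pair comes from the highest-scoring peaks. Irs2, an adaptor of insulin and IGF signalling, lies under the strongest peak of the chromosome, and its window is chr8:11008409-11008708 on the minus strand. Plvap, which encodes a protein of endothelial diaphragms, lies at the next strongest, and its window is chr8:74035619-74035918 on the minus strand. The Irs2 window holds 47 CG dinucleotides and the Plvap window 8, although the peak scores were nearly the same.
Irs2: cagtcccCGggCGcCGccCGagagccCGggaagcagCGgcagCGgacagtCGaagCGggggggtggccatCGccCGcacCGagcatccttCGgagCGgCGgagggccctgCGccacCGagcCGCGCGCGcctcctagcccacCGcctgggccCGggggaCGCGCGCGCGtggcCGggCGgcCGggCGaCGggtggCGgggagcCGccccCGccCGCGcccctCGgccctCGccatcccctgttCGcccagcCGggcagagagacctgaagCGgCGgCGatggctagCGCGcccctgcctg
Plvap: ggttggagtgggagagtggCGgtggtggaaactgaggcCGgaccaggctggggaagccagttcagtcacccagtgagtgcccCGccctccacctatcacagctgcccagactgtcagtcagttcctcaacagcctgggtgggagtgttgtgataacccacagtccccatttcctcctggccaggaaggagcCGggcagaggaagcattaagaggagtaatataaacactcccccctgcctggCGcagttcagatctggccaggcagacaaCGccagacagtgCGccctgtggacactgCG

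The next set comes from the longest unbroken row of bound genes, together with a gene without a peak next to it. Within the row, Efha2 encodes an EF-hand protein (chr8:41392562-41392861 on the plus strand), Fgf20 a fibroblast growth factor (chr8:41393636-41393935 on the minus strand), Zdhhc2 a palmitoyltransferase (chr8:41508919-41509218 on the plus strand), Cnot7 a deadenylase of the CCR4-NOT complex (chr8:41597023-41597322 on the minus strand) and Mtmr7 a myotubularin-related phosphatase (chr8:41720102-41720401 on the minus strand). Adam24, one of the Adam proteases, bounds the row on the right (chr8:41760198-41760497 on the plus strand). The window of this unbound gene holds 0 CG dinucleotides, and those of the bound genes hold 5 at Efha2, 20 at Fgf20, 40 at Zdhhc2, 38 at Cnot7 and 32 at Mtmr7. The window of Vps37a, also in the row but not printed, holds 42. The Efha2 window, with TATAAA and no GGGCGG, was therefore closer in CG number to the unbound neighbour than to the rest of its row. The main TSS at that window lay 0.685 kb from the peak midpoint, within the limit of 1 kb, but just outside the peak. Another TSS of Efha2 lay inside the peak, 92 bp from the midpoint. The peak itself holds 110 CG dinucleotides.
Efha2: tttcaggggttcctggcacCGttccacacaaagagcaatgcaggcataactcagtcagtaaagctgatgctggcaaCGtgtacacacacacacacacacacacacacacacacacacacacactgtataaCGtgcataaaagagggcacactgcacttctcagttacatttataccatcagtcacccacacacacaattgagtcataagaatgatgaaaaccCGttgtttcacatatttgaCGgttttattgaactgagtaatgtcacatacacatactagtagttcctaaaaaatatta
Fgf20: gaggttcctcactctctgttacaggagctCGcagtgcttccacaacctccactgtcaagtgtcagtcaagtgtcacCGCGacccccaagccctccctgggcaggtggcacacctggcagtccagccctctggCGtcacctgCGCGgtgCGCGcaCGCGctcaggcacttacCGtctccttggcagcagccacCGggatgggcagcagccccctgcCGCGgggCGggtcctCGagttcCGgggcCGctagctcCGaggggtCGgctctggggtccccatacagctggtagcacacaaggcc
Zdhhc2: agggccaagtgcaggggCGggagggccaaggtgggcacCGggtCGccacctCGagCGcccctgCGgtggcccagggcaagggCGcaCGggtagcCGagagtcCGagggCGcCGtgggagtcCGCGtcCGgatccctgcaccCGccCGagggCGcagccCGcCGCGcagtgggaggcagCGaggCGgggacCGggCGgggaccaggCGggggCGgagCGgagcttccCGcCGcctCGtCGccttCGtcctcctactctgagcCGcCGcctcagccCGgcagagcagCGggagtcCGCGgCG
Cnot7: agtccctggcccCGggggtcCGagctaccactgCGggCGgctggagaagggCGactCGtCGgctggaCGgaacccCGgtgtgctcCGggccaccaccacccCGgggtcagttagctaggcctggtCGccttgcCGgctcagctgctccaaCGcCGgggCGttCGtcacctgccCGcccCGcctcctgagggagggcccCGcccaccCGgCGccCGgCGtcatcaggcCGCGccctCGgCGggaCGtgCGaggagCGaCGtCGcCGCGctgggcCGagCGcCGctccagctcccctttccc
Mtmr7: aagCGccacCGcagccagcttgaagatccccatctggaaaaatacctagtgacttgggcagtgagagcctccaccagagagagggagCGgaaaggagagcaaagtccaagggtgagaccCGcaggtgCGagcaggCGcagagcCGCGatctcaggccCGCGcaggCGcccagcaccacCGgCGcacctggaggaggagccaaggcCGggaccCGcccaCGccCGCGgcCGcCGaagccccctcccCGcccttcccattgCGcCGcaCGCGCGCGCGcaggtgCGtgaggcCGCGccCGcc
Adam24: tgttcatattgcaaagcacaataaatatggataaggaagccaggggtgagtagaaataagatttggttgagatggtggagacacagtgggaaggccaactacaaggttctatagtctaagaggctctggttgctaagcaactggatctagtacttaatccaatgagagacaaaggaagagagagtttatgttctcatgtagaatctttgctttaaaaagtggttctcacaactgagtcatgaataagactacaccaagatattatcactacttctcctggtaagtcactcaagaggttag

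The authors' score of a peak is the MACS p-value on a log scale, as -log10 multiplied by 10. On chromosome 8 it had a median of 205.7, with quartiles at 141 and 342 and a range from 100.1 to 1638. The median on the other chromosomes was 229, with quartiles at 157 and 349. No other chromosome had a lower median score. At the same time the peaks were wide, with a median of 1569 bp (quartiles 1284 and 2042, range 675 to 6413), against 1426 bp elsewhere (quartiles 1178 and 1760), and no other chromosome had a larger median width. At a score of at least 200, 133 of the 251 peaks were left, or 53.0% (46.6 to 59.3%), and 59.8% (58.0 to 61.5%) of the peaks elsewhere. When all 3336 peaks were ordered by score and divided into 10 classes of equal size, chromosome 8 supplied 10.8% (7.66 to 14.6%) of the lowest class and 6.59% (4.17 to 9.80%) of the highest. In the classes between, its share ran from 5.69 to 8.38%. The numerous peaks of chromosome 8 were therefore spread over the whole range of scores. Their share was largest in the weakest class, whose interval began just above the 7.52% of all peaks.

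**Figure D1:**
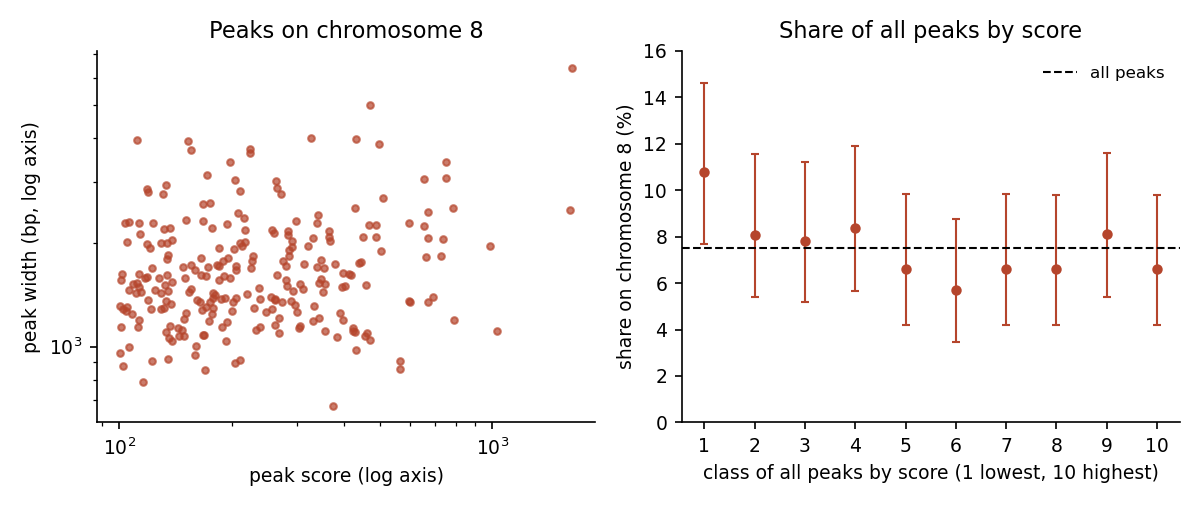
The left panel plots the width in bp against the score of each of the 251 peaks, both on log axes, and the right panel plots, for 10 equal classes of all listed peaks by score, the percentage on chromosome 8 with its 95% exact interval. Scores lie between 100.1 and 1638, and the percentage is highest in the lowest class, at 10.8%, where the share over all peaks (dashed line) is 7.52%.

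The peaks sat on the TSS. In 244 of 251 peaks (97.2%) a TSS lay inside the interval, and the midpoint was a median of 86 bp downstream of the nearest TSS, with quartiles 28 bp upstream (-28) and 272.5 bp downstream. These positions follow in part from how the list was made. By annotation, 72 midpoints fell in introns, 71 in coding exons, 55 in UTRs, 46 between genes and 7 in exons of non-coding transcripts. On both strands genes were bound at like rates, 23.2% (19.8 to 26.8%) of the genes on the plus strand and 24.2% (20.5 to 28.3%) of those on the minus strand. Most peaks, 205, had a single bound gene of any type, 38 had a pair, 2 had 3 and 6 had none. Both genes were bound in 16 of the 61 pairs of divergent neighbours whose TSSs lay within 1 kb of each other, and a single gene in 2 of them. This split follows largely from the rule, since starts so close mostly fall within 1 kb of the same midpoint.

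The strongest peak spanned chr8:11003759-11010171 and scored 1638, rank 10 of all 3336. It was also the widest of the chromosome, with 6413 bp and 454 CG dinucleotides, and it covered the TSS of Irs2. Its midpoint was 1493 bp from that TSS and 885 bp upstream of the lincRNA 9530052E02Rik, so that Irs2 is not among the 256 bound genes. The Plvap peak, chr8:74034930-74037414, scored 1617 with its midpoint 504 bp upstream of the TSS, between genes. Its sequence was poor in CpG, with an observed-to-expected ratio of 0.347 (the number of CG dinucleotides over the number that the C and G content would give), where the median over the 251 peaks was 0.674.

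The pseudogene Gm16589 had the next peak, with a score of 1029, and the nearest protein_coding gene was Cd209f, 18.0 kb away. Of the 36-base words in this peak, 50.5% occur more than once in mm9. Papd5, a non-canonical poly(A) polymerase, followed with a score of 986 and a midpoint 482 bp downstream of the TSS. Adad2, an RNA-binding protein of male germ cells, had a score of 787, and its midpoint lay in a coding exon 82 bp downstream of the TSS. The peak shared by 2210011C24Rik and Mir1199 scored 783. Gm16793, a lincRNA near the start of Mfhas1, was at 752 and the testis dipeptidase Dpep3 at 749.8. The Gm16793 peak also covered the TSS of Mfhas1, 1284 bp from the midpoint. Cmtm1, of the chemokine-like factor family, was at 736, and Sh3rf1, a scaffold with ubiquitin ligase activity, at 726. Of these 10 peaks, 3 had no bound protein_coding gene by the midpoint rule, although those at Irs2 and Mfhas1 covered a protein_coding TSS. At the other end, Tmem59l had a score of 100.1, D230025D16Rik of 100.2 and Atxn1l of 100.7, next to the authors' limit. Besides the peak at Irs2, the widest were those of the transcriptional regulator Irf2bp2, 5005 bp with a score of 469, and of the synaptic vesicle GTPase Rab3a, 4025 bp with a score of 327.

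Bound genes of chromosome 8 were richer in GC and CpG than its genes without a peak, with much overlap. Over 1000 bp around the main TSS, the one shared by most transcripts, bound genes had a median GC content of 62.3% (quartiles 57.3 and 67.1%) and a median CpG ratio of 0.759 (0.612 to 0.889). The genes without a peak had 54.8% (48.4 to 60.7%) and 0.549 (0.248 to 0.774). Bound genes on the other chromosomes had medians of 63.3% and 0.778, so this richness was not particular to chromosome 8. Counted in the promoter windows of 300 bases, the median was 23 CG dinucleotides in bound genes and 13 in genes without a peak. The windows printed for Zdhhc2 and Cnot7 lie above the upper quartile of 33, and those for Plvap, Efha2 and Adam24 lie below the lower quartile of the bound genes, 14. GGGCGG, the core of the GC box bound by Sp1 family factors, was present on either strand in 69.9% (63.9 to 75.5%) of bound promoters, 43.3% of the promoters without a peak and 43.7% of all promoters. For CCAAT these shares were 30.9%, 40.8% and 37.7%, for TATAAA 9.38%, 13.0% and 13.4%, and for CACGTG, an E-box, 7.81%, 7.75% and 7.75%. Bound promoters on the other chromosomes held GGGCGG in 68.2%, CCAAT in 31.2%, TATAAA in 5.94% and CACGTG in 8.58%. None of these motifs contains another, and a match is a description of the sequence.

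Among genes of like base content, more were bound on chromosome 8 than elsewhere. When each gene of chromosome 8 was given the bound share of genes of the same GC class and CpG class on the other chromosomes (5 classes of equal size each, 25 combinations), 177.5 bound genes were expected, or 16.4%. The observed number was 1.44 times this (1.29 to 1.60 from the interval of the observed share alone). The same ratio was 1.24 on chromosome 11, 1.19 on chromosome 12, 1.13 on chromosome 9 and 0.192 on the X. Only chromosome Y, with 1 bound gene, had a higher ratio. In each of the 5 CpG classes the share was higher on chromosome 8 than elsewhere, and the ratio of the shares was lowest in the highest class. In the middle class 23.2% of genes were bound on chromosome 8 and 12.9% elsewhere, and in the next higher class 31.4% and 17.9%. In the highest class the shares were 37.7% (32.0 to 43.8%) and 31.2% (29.8 to 32.6%), a ratio of 1.21.

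In the lowest CpG class, 6 of 160 genes were bound, or 3.75% (1.39 to 7.98%), and 1.21% elsewhere. These were Ccl25 (a chemokine of thymus and gut), Gm10654, the endocytic adaptor Eps15l1, the adenylate cyclase Adcy7, the chromatin regulator Ankrd11 and the melanocortin receptor Mc1r, with scores from 100.8 to 338. Only Gm10654 and Mc1r had the midpoint within 1 kb of the main TSS. The peaks of the other 4 lay between 20.5 and 67.3 kb from it, at another TSS of the gene, so that the low CpG ratio was not that of the bound promoter. Counting only the main TSS of each gene, the share in the lowest class was 1.25% on chromosome 8 and 0.672% elsewhere. Over the whole chromosome 14 of the 256 genes were bound only at another TSS.

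**Figure D2:**
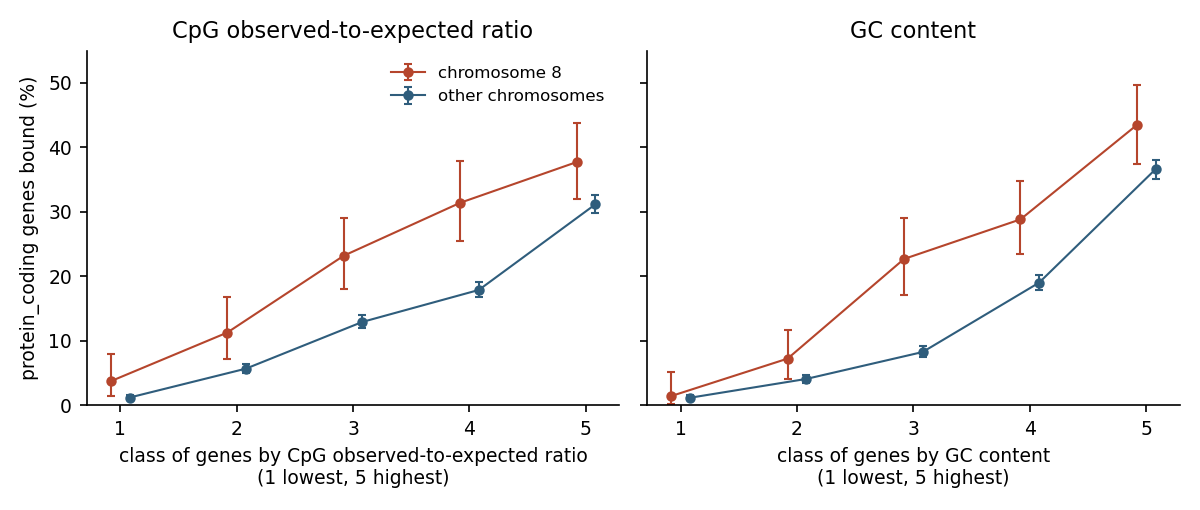
The panels plot the percentage of protein_coding genes bound on chromosome 8 and on all other chromosomes, with 95% exact intervals, against 5 equal classes of genes by CpG observed-to-expected ratio (left) and by GC content (right) around the main TSS. Both shares rise with content, from 3.75 to 37.7% on chromosome 8 by CpG ratio, and the chromosome 8 points lie above the others in each class.

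Along the chromosome the peaks ran from 3.59 Mb to 131.2 Mb. In bins of 5 Mb the most bound genes lay at 105 to 110 Mb, 28 of 110 genes (25.5%, 17.6 to 34.6%), at 85 to 90 Mb, 27 of 91 (29.7%, 20.5 to 40.2%), and at 125 to 130 Mb, 27 of 70 (38.6%, 27.2 to 51.0%). The bin with the most genes, 70 to 75 Mb, had 24 of 135 bound (17.8%, 11.7 to 25.3%). Of the 23 bins with at least 10 protein_coding genes, 18 had a share above 14.2% and 19 held more bound genes than their GC and CpG content would give. Bound genes above the content number were thus not confined to a single bin. In some of these bins the excess was small, as at 0 to 5 Mb with 6 bound and 4.91 expected. At 120 to 125 Mb 13 were bound and 13.1 expected.

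The highest share among these bins, 41.2% (18.4 to 67.1%), was that of 30 to 35 Mb, with 7 of 17 genes. They were Nrg1, a ligand of ErbB receptors, at a score of 672, the phosphatase Dusp26 at 460, the meiotic gene Tex15 at 226, the RecQ helicase gene Wrn and its neighbour Purg on a shared peak at 159, the phosphatase subunit Ppp2cb at 137 and the netrin receptor Unc5d at 109. The next, 40.0% (21.1 to 61.3%), was that of 90 to 95 Mb, with 10 of 25 genes. There Papd5 had a score of 986, Aktip 355, Adcy7 338, the deubiquitinase Cyld 261, the Iroquois gene Irx5 and 4933436C20Rik 204 on a shared peak, the bromodomain gene Brd7 195, the zinc finger gene Zfp423 154, the retinoblastoma relative Rbl2 135 and the Wnt inhibitor Nkd1 119. The intervals of these bins overlap those of most others, so their order is not resolved.

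The lowest share was at 15 to 20 Mb, with 1 of 28 genes (3.57%, 0.0904 to 18.3%), followed by 45 to 50 Mb with 3 of 37 (8.11%, 1.70 to 21.9%). The bins at 50 to 55 Mb and 100 to 105 Mb had no peak, but held only 3 and 4 genes. From one peak to the next the median distance was 139 kb. The largest gap, 11.2 Mb, ran from Acsl1 to Hpgd and held 32 genes without a peak, among them Irf2, Vegfc and Odz3, where content would give 4.41 bound genes. The next, 8.35 Mb, held only 10 genes, among them the cadherins Cdh8, Cdh11 and Cdh5. The longest unbroken row of protein_coding genes that were not bound had 71 members, from chr8:15046078 to 23276907 between Kbtbd11 and Ckap2. The defensin cluster lay inside it. Its median CpG ratio was 0.0904, and content would give 2.34 bound genes. This stretch was not free of peaks, since a peak at the pseudogene Gm16425 lay inside it, with a score of 311.

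**Figure D3:**
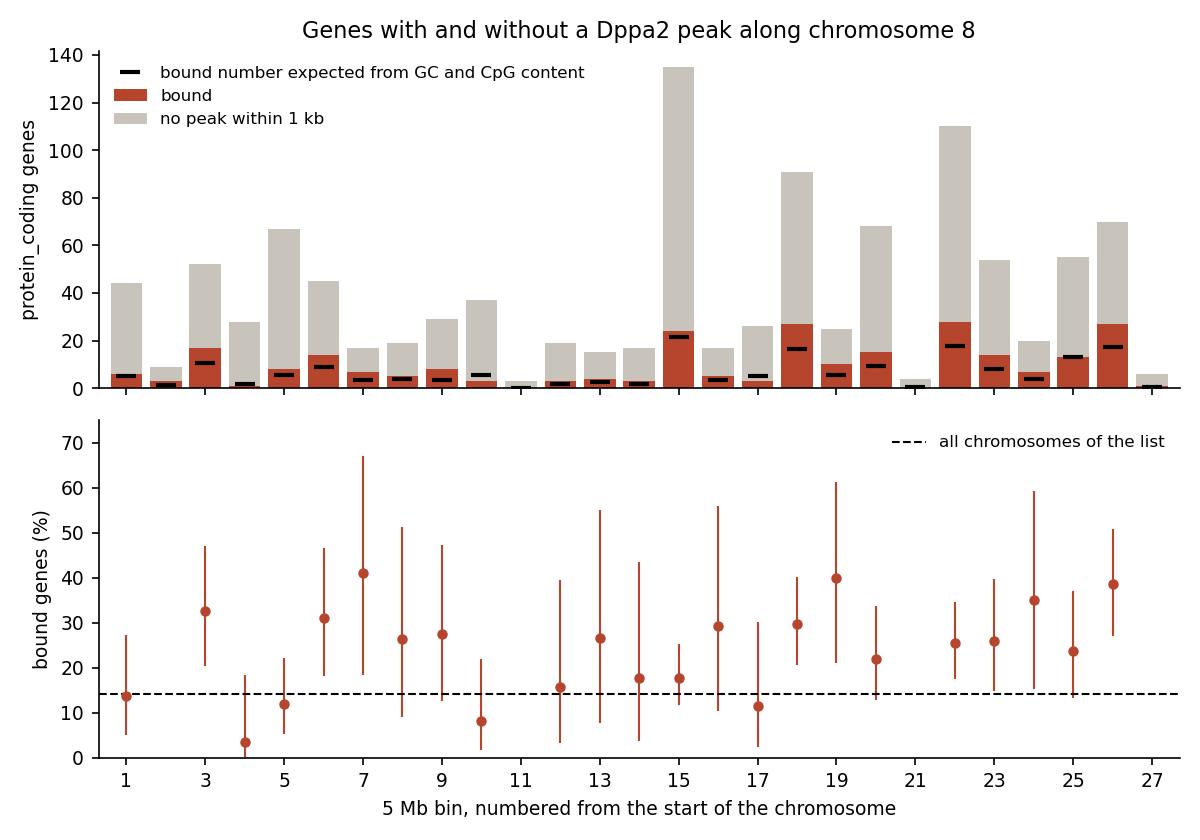
Protein_coding genes of chromosome 8 are counted in 27 bins of 5 Mb; the upper panel stacks bound genes (red) and genes without a peak (grey), with a black mark at the number expected from GC and CpG content, and the lower panel gives the bound percentage with its 95% exact interval for bins with at least 10 genes. The red bar exceeds the mark in 19 of these 23 bins, and the percentage runs from 3.57% in bin 4 to 41.2% in bin 7.

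Bound genes often stood beside each other. With the protein_coding genes ordered by main TSS, the 256 bound genes formed 159 unbroken rows: 103 single genes, 29 pairs, 17 rows of 3, 7 of 4, 2 of 5 and 1 of 6. Rows of 3 or more numbered 27 and held 95 genes, or 37.1% of those bound. Chromosome 11 had 26 such rows and chromosome 12 had 12. Part of this is peaks shared between genes: 16 of the 27 rows had at least 3 peaks, 10 had 2 and 1 had a single peak, at Elavl1 and the duplicate entries of Ccl25. When genes on the same peak were counted as 1, 16 rows of 3 or more were left and the longest had 4 members.

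The row of 6 was made up of Efha2, Fgf20, Zdhhc2, Cnot7, Vps37a and Mtmr7, over 327 kb. It rested on 4 peaks. The first, with a score of 257, was shared by Efha2 and Fgf20, which lie on opposite strands and overlap. The window printed for Efha2 is at its main TSS, which lay just outside the peak, while another TSS of Efha2 lay inside it. Zdhhc2 had a peak of its own at 338, Cnot7 and Vps37a (a subunit of the ESCRT-I sorting complex) shared a peak at 189, and Mtmr7 had one at 211. All 4 scores were moderate, between 189 and 338, on both sides of the chromosome's median.

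The rows of 5 were Gpt2, Dnaja2, Neto2, Itfg1 and Phkb on 4 peaks (scores 119 to 413), and Ppapdc1b, Ddhd2, Gm17484, Bag4 and Lsm1 on 3 peaks (104 to 418). Among the rows of 4, those with a peak for each gene were Cldn23, Gm10063, D8Ertd82e and Lonrf1 (123 to 671), Prkaca, Samd1, 1700067K01Rik and 2210011C24Rik (153 to 783), Papd5, Adcy7, Brd7 and Nkd1 (119 to 986), and Pcnxl2, BC021891, Kcnk1 and Slc35f3 (144 to 422). The row with Prkaca, the catalytic subunit of protein kinase A, was the most compact of these, with 38.5 kb. The other rows of 4 had 3 peaks each: Fbxo25, 2610019F03Rik, Erich1 and Gm10699 (178 to 391), Adam32, Adam9, Tm2d2 and Htra4 (156 to 455), and Tbc1d9, Gm10645, Ucp1 and Elmod2 (102 to 108). Ucp1 encodes the uncoupling protein of brown fat, and all peaks of its row were close to the limit of the list.

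Of the 512 neighbours of bound genes, 194 were bound, or 37.9% (33.7 to 42.3%). Of the 1650 neighbours of genes without a peak, 19.3% (17.4 to 21.3%) were. A pair of neighbours was counted from each of its genes, so the 194 are 97 bound pairs entered from both sides. The intervals in this paragraph, also those by distance, treat these entries as separate and are too narrow. With shared peaks counted once, 30.3% (26.1 to 34.7%) of neighbours were bound, where 21.6% of these units were bound in all. The ratio of the share among neighbours to the share of the whole chromosome was 1.60, rank 17 of 21 chromosomes. By the share among neighbours itself chromosome 8 ranked 1. A higher bound share lowers the largest value that the ratio can take, and chromosome 8 had the highest bound share, but its ratio was well below that value. Chromosomes 12 and 11, which came next in bound share, had ratios of 1.68 and 1.65. The ranks differ between the measures and include shared peaks, so they do not settle whether neighbouring was more or less pronounced here. Among neighbours with peaks of their own, the share bound was 22.2% (11.2 to 37.1%) under 10 kb, 22.0% (16.2 to 28.7%) at 10 to 50 kb, 42.8% (35.3 to 50.5%) at 50 to 200 kb and 25.0% (14.4 to 38.4%) at 200 kb or more. The share of all genes bound in these classes, leaving out pairs on a shared peak, was 12.4%, 20.9%, 28.0% and 22.2%.

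**Figure D4:**
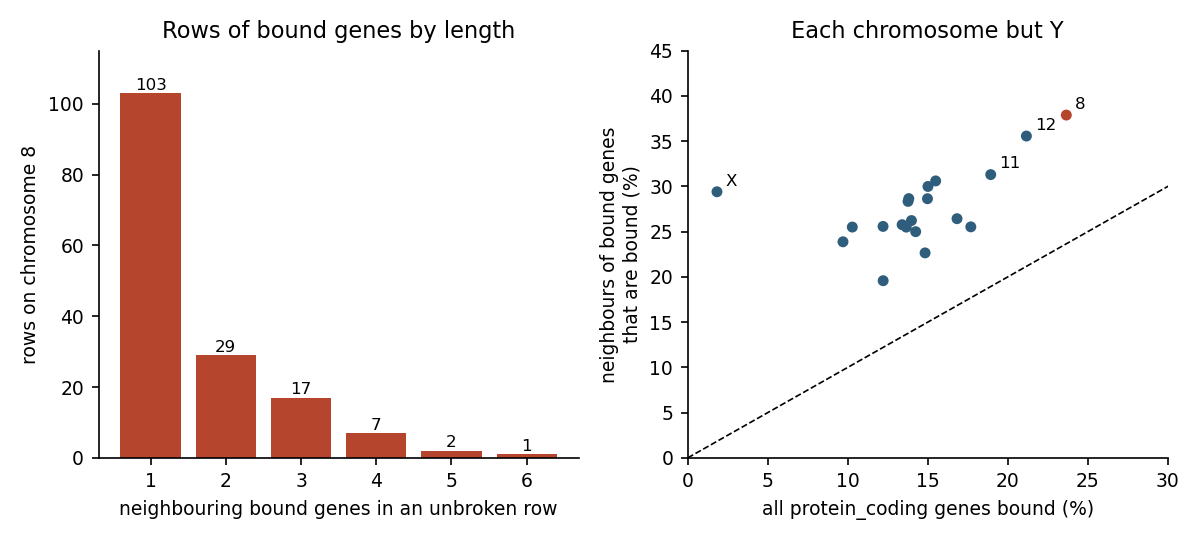
The left panel counts the unbroken rows of bound genes on chromosome 8 by their number of genes, and the right panel plots, for each chromosome but Y, the percentage of neighbours of bound genes that were bound against the percentage of all protein_coding genes bound, with equality as a dashed line. Single genes make up 103 of the 159 rows, and chromosome 8 lies at 23.7% and 37.9%, farthest to the right.

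By function, 11 of 27 developmental transcription factors on the chromosome were bound (40.7%, 22.4 to 61.2%). Their content would give 6.04 at the shares of the other chromosomes, a base that all genes of chromosome 8 exceed 1.44 times, and the share over all its genes was 23.7%, within the interval of each list given here but the defensins. Smad1, which transmits BMP signals, had the highest score, 443, followed by Irx6 at 330, the myeloid factor Irf8 at 257 and Irx5 at 204. The other 7 were below 200, namely the haematopoietic factor Lyl1 at 171, Zfp423 at 154, the calcineurin-regulated Nfatc3 at 133, the AP-1 member Jund at 133, the forkhead gene Foxc2 at 129, the orphan nuclear receptor Nr2f6 at 111 and the leucine zipper factor Maf at 101. Irx3, which lies next to the row of Irx5 and Irx6, had no peak, nor had Junb, Klf2, Sall1, Hand2, Foxf1a or the ESC marker Zfp42. Within a family the bound state thus differed between members. Jund and Nr2f6 were bound only at another TSS, with the midpoint 1.87 and 5.01 kb from the main TSS. The content behind the number of 6.04 was read at the main TSS. At a distance limit of 500 bp 7 of the 11 were left, and at a score of at least 200 there were 4.

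Of 12 germline and meiosis genes 5 were bound (41.7%, 15.2 to 72.3%), where content would give 1.50 on the same base. These were Adad2 at 787, Dpep3 at 749.8, the chromodomain gene Cdyl2 at 291, Tex15 at 226 and Fanca, of the Fanconi anaemia core complex, at 133. Syce2, a component of the synaptonemal complex, and Nanos3, needed for primordial germ cells, had no peak. The 2 strongest peaks of this group were at testis genes with CpG ratios of only 0.436 (Adad2) and 0.551 (Dpep3). Among 20 signalling gene entries 7 were bound (35.0%, 15.4 to 59.2%, where 23.7% of all genes of the chromosome were), and content would give 4.06. They were the ligands Nrg1 at 672, Fgf20 at 257, Gdf15 at 131 and Efnb2 at 119, the receptor Fgfr1 in both of its entries, on the same peak, at 206, and Smad1. The insulin receptor Insr, the Wnt antagonists Dkk4 and Sfrp1, and Hhip and Ednra had no peak.

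Among the gene families and symbol prefixes listed, the defensins and carboxylesterases had almost no bound genes, and their content would give few. None of 35 defensin genes was bound, which allows a share of up to 10.0%, and content would give 0.318. One of 21 carboxylesterase entries was bound, a copy of Ces5a at a score of 565, in a peak where 87.0% of the 36-base words are repeated in mm9. Of 12 Adam genes 2 were bound (16.7%, 2.09 to 48.4%), Adam32 at 455 and Adam9 at 156, where content would give 0.639. Of 8 cadherins 2 were bound (25.0%, 3.19 to 65.1%), E-cadherin Cdh1 at 181 and Cdh15 at 225, where content would give 1.04. Of 4 metallothioneins 1 was bound (25.0%, 0.631 to 80.6%), Mt3 at 106, and not Mt1, Mt2 or Mt4, where content would give 0.352. Of 21 genes with the prefix Slc, which marks solute carriers, 8 were bound (38.1%, 18.1 to 61.6%), where content would give 5.32 and the share over the chromosome was 23.7%. The highest score was that of the phosphate transporter Slc20a2, 260, and 1 of the 8, Slc7a6os, is named for lying opposite Slc7a6 and is not itself a solute carrier. Of 27 Zfp genes 3 were bound (11.1%, 2.35 to 29.2%), Zfp866 at 374, Zfp612 at 185 and Zfp423, where content would give 4.02. The Zfp866 score is that of a peak at another TSS of the gene. The peak at its main TSS, shared with Atp13a1, scored 177. The respiratory, ribosomal and ATPase genes had 1 of 13, Atp13a1 at 177, where content would give 2.96, and the ion channel genes 1 of 5, Kcnk1 at 149, where it would give 0.454. The collagen genes Col4a1 and Col4a2 had none, where it would give 0.627. These families are small, and the intervals of their shares are wide. Except for the defensins, each interval includes the 23.7% over the chromosome. A number above the content one therefore does not set a family apart from the chromosome's other genes.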

How the data were processed

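Anti-V5 ChIP-seq had been done in V5-Dppa2 ESCs and in the parental line, with 1 library each. The authors removed low-complexity reads, aligned to mm9 with Bowtie 0.12.7 (seed of 36 bases, at most 2 mismatches), removed duplicates with Picard 1.81 and called peaks against the control with MACS 1.4.2 at a shift size of 75 bp. Names and versions are from the submitters' processing notes and the methods. The score column deposited by the authors gives the MACS p-value as -log10 multiplied by 10. Read depth is unknown, and a peak can hold reads from other copies of repeated sequence.

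Starts in the list were read as counted from 0. The distance of each peak midpoint to TSSs was taken from GENCODE M1, of the same build, and genes were placed by the TSS shared by most transcripts. Promoter sequence, GC content and the share of 36-base words found more than once were read from mm9. Expected numbers came from 25 combined classes of GC and CpG content on the other chromosomes. There were no replicates and no tests, and intervals are exact Clopper-Pearson at 95%. The members and the gene lists were chosen with earlier results of these data known. The genes named are those at the 10 highest, 3 lowest and 3 widest peaks, in rows of 4 or more, in the 2 bins with the highest share and in the lists. Other genes, such as those in gaps and in the lowest CpG class, were named after their values were seen. Alternatives were other distances, scores, bins and content classes. The steps were tested on simulated data. Computations used pandas 2.3.3, numba 0.67.0, numpy 2.4.6, matplotlib 3.10.9, pysam 0.24.0 and scipy 1.17.1 under Python 3.11.15.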

Additional observations from a re-analysis of the deposited data

How the results depend on the processing

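At a score of at least 200 in place of 100, 133 peaks and 132 bound genes were left on chromosome 8, with 7 rows of 3 or more, 18 bound genes in the fullest bin (125 to 130 Mb in place of 105 to 110 Mb) and 21.2% of neighbours bound, where 12.2% of all its genes were. The fullest bin also moved with bins of 10 Mb (120 to 130 Mb, 40 bound genes) and with bins shifted by 2.5 Mb (122.5 to 127.5 Mb, 26). With shared peaks counted once there were 16 rows, and 30.3% of neighbours were bound. The number of bound genes was 226 at 500 bp, 282 at 5 kb, 269 with any base of the peak, 254 with TSSs of protein_coding transcripts, 250 without peaks of mostly repeated sequence and 242 with the main TSS of each gene, the last chosen after the data were seen. The ratio to the content-expected number lay between 1.30 and 1.51 over its alternatives. No paired analysis was possible because each condition is 1 library and no value comes from a test. Without replicates and read counts, differences in score between peaks have no error, and genes without a listed peak may carry weaker signal.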

Other observations

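Besides the protein_coding genes, 29 other genes on chromosome 8 were bound. They were 9 of 64 lincRNAs (14.1%, 95% exact interval 6.64 to 25.0%) and 9 of 110 pseudogenes (8.18%, 3.81 to 15.0%). With them were 7 of 86 processed transcripts (8.14%), 2 of 73 miRNAs (2.74%) and 2 of 33 misc_RNA genes (6.06%). Over all annotated genes of the chromosome the share was 17.3%, 285 of 1643. Some of these genes lay on a peak shared with a bound protein_coding gene, such as Gm15351 with Mcf2l. For 22 of the 251 peaks no protein_coding gene was bound, and 28 had at least 2. The 6 peaks without any bound gene had their midpoint between 1012 and 1534 bp from the nearest TSS, while the last midpoints inside it were at 884 bp (Nacc1), 885 bp (9530052E02Rik) and 902 bp (Exoc8). The closest midpoints were 1.63 kb apart, at Gm17296 and Gm6091, and 2.01 kb apart, at the interleukin receptor Il27ra and the relaxin gene Rln3.

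In 157 of the 251 peaks no 36-base word was repeated in mm9, and in 7 more than 50% were. Of these, the peaks at Slc12a3, Tsnax and Disc1 were repeated over their whole length when unplaced contigs were included, and at 0, 1.44 and 0% on the placed chromosomes alone. Egln1, Tsnax and Disc1 form a row of 3 bound genes, with scores of 215, 122 and 137. Whether reads from the unplaced copies entered these peaks was not tested.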
